A study of Mus musculus with 4 samples.

Results

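The 9 genes described here encode proteins that remove damaged mitochondria and other cargo from the cell, and they were taken by symbol from the 23337 genes listed for each library. They were *Pink1*, the mitophagy receptor genes *Bnip3*, *Bnip3l* and *Fundc1*, the cargo receptor gene *Sqstm1*, the ATG8 family genes *Map1lc3a*, *Map1lc3b* and *Gabarapl1*, and *Becn1*. All 9 were listed in each library. A further 69 autophagy and mitophagy genes, in 9 lists by role, were read beside them.

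In mitophagy, a mitochondrion that has lost its membrane potential is marked and enclosed by an autophagosome, which then fuses with a lysosome. PINK1, a kinase, accumulates on the outer membrane of such a mitochondrion and phosphorylates ubiquitin there. Cargo receptors such as p62 link the ubiquitin to ATG8 proteins on the forming membrane, whereas BNIP3, NIX and FUNDC1 sit in the outer membrane and bind ATG8 proteins themselves. Cardiomyocytes are densely packed with mitochondria and do not readily divide, and mitophagy is one route by which they renew them.

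RNA-seq had been carried out on 4 libraries of whole mouse heart from C57BL6/J stock, each made from RNA of 5 pooled hearts of males and females. The controls were PIMT fl/fl mice, whose *Tgs1* gene, which encodes PIMT, carries loxP sites, aged 2 or 6 months. Age-matched csPIMT-/- animals carried these floxed alleles too, and an α-MyHC-Cre transgene, whose promoter is active in cardiomyocytes from late gestation and early postnatal life, so that other cells of the heart kept PIMT. With 1 library per group there was no replicate error at a single age, and the p-values below come from 1 fit over both ages. A lower level in such bulk tissue can mean fewer cells of a type or less RNA per cell, which cannot be told apart.

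The libraries held 29823073 to 40705783 reads. Counted over the whole gene, *Tgs1* had 670 reads in the younger and 928 in the older controls, and 130 and 156 where PIMT had been deleted, a ratio of 0.271 at 2 months and 0.194 at 6 months. The 7 cardiomyocyte markers, not all of them specific to the ventricle, summed to similar levels in both genotypes, with ratios of 1.04 and 0.875. Single markers differed in direction, with 4 of the 7 higher at 2 months and 3 at 6 months. *Ryr2* stood at 0.608 and 0.538 and *Myl3* at 1.43 at both ages. The 2-month control stood apart, with atrial and fat markers far below those of the other 3 libraries: *Myl7*, an atrial myosin light chain, had 1208 reads there against 7770 to 34802, and the 3 fat markers summed to a normalized count of 11.2 against 749 to 5494. The summed atrial markers were 7.99 times the control at 2 months and 3.03 times at 6 months, when 1 of the 4 (*Nppa*) was higher. The 5 macrophage markers found summed to 3.30 and 1.74 times the control, with 5 and 4 of them higher. The 5 fibroblast markers summed to 0.885 and 1.68 times, with 2 and 4 of them higher. For the 4 endothelial markers the sums were 0.674 and 1.10 times the control, with 0 and 3 higher. The 5 skeletal muscle markers, at summed normalized counts of 120 to 460, stood at 0.340 and 3.73 times, with 2 and 5 higher. The 4 hemoglobin genes of the red blood cell list were at 0 in each library, and the fifth gene, *Alas2*, stood at 0.604 and 4.30 times the control. The 5 lung markers summed to 1.73 to 17.7 in 3 libraries and to 1160 in the csPIMT-/- library of 2 months. That library also had the highest fat sum, 5494, and 1432 reads of the brown fat gene *Ucp1* against 10 to 106. The 2 brown fat markers summed to 2.28 and 2.36 times the control, with 2 and 1 of them higher. The part of these cells in the results below was not tested. Each 2-month ratio of the 9 genes is also given against the 6-month control, which keeps the same csPIMT-/- library.

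Of the 9 genes, *Sqstm1* and *Gabarapl1* were about 3 times as abundant in csPIMT-/- hearts at both ages, *Pink1* was higher by smaller ratios, and *Fundc1* and *Bnip3l* were lower. In the fit over both ages (limma, Benjamini-Hochberg adjusted p under 0.05) 3 genes rose and 2 fell, and the remaining 4 did not pass. Of all 14935 genes tested by limma, 12.2% rose and 18% fell. After subtraction of the trend on GC content of the transcripts limma called 0 members and 0 of all 14761 genes. With the 2-month control left out, *Gabarapl1* differed by 1.47 on the log2 scale and *Fundc1* by -2.30. With the 6-month control left out these differences were 1.72 and -1.88. The fits without a library also left out age, which would have used up the residual degrees of freedom, and took the genotype left with 1 library to vary like the other. Both csPIMT-/- libraries lay above both controls in 5 of the 9 genes and below them in 3, where 34.6% of 15589 genes lay wholly above and 35.1% wholly below. *Bnip3* was the only member in which the libraries of the genotypes overlapped. The median ratio of the 9 genes was 1.59 at 2 months and 1.52 at 6 months, beside 0.978 and 0.976 over all genes compared. After subtraction of the GC trend these medians were 1.42 and 1.30, beside 1.01 at both ages over all genes.

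**Figure D1:**
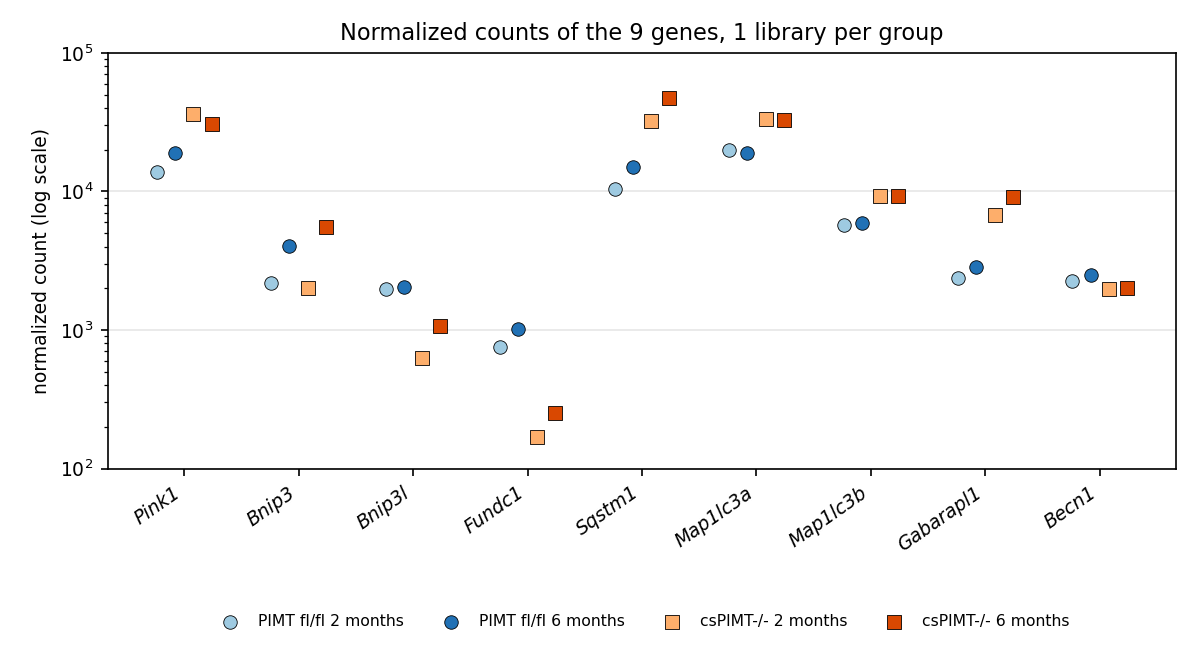
Normalized counts (y axis, log scale) of the 9 genes (x axis) in the 4 libraries, as circles for PIMT fl/fl and squares for csPIMT-/-, 1 library per group and so without error bars. Both csPIMT-/- points lie above both controls for Pink1, Sqstm1, Map1lc3a, Map1lc3b and Gabarapl1, and below both for Bnip3l, Fundc1 and Becn1.

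*Pink1* (GRCm38 chr4:138313409-138326307) had normalized counts of 13756 and 18878 in the controls of 2 and 6 months and of 35994 and 30616 in the csPIMT-/- hearts. Both csPIMT-/- values were above both controls. The ratio, with its 95% counting interval, was 2.56 (2.52 to 2.62) at 2 months and 1.58 (1.55 to 1.61) at 6 months, and 1.84 at 2 months against the older control. These intervals hold the counting error of the reads and no difference between hearts. Over both ages *Pink1* rose by 1.05 on the log2 scale (SE 0.277, limma adjusted p = 0.0399). Within a genotype, the ratio of 6 over 2 months was 1.31 in the controls and 0.827 in the csPIMT-/- hearts.

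Among the mitophagy receptors *Fundc1* and *Bnip3l* went the other way from *Pink1*. *Fundc1* (chrX:17556564-17572325), whose product binds ATG8 proteins on mitochondria under low oxygen, had normalized counts of 757 and 1018 in the controls and of 168 and 252 in the csPIMT-/- hearts. The lower control was thus 3 times the higher csPIMT-/- value. The ratio was 0.217 (0.180 to 0.260) at 2 months and 0.241 (0.209 to 0.277) at 6 months, the lowest of the 9 genes at both ages, and 0.159 at 2 months against the older control. *Fundc1* fell by 2.08 on the log2 scale over both ages (SE 0.291, limma adjusted p = 0.0121).

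*Bnip3l* (chr14:66985239-67008877) encodes NIX, the receptor by which maturing red blood cells clear their mitochondria. Its normalized counts were 1965 and 2051 in the controls and 631 and 1064 in the csPIMT-/- hearts. Both csPIMT-/- values were below both controls, and the younger was the lower. The ratio was 0.315 (0.286 to 0.347) at 2 months and 0.506 (0.469 to 0.544) at 6 months, so that the second lay just short of a 2-fold difference. It was 0.298 at 2 months with the older control. Over both ages *Bnip3l* fell by 1.28 (SE 0.263, limma adjusted p = 0.0228). A processed copy, *Bnip3l-ps*, shared 23.4% of the 50-base windows of its longest transcript, and reads from there could be split or dropped.

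*Bnip3* (chr7:138890836-138909519), a receptor gene known to be induced by low oxygen, gave 2182 and 4007 normalized counts in the controls and 2016 and 5507 in the csPIMT-/- hearts. Here the older hearts of each genotype held the 2 higher values. The ratio was 0.905 (0.850 to 0.964) at 2 months and 1.34 (1.29 to 1.39) at 6 months, and 0.487 for the younger csPIMT-/- hearts against the 6-month control. limma gave a difference of 0.18 over both ages (SE 0.233, adjusted p = 0.574). Between 2 and 6 months *Bnip3* was 1.75 times higher in controls and 2.66 times higher in csPIMT-/- hearts, the highest ratio among the 9 genes in each genotype. It was the only member past 2-fold between the ages in either genotype, where 8.15% of genes in controls and 9.17% in csPIMT-/- hearts were more than 2-fold higher, and 5.21% and 8.73% more than 2-fold lower, in the older library. Of the 50-base windows of the *Bnip3* transcript 62.4% recur in transcripts of other annotated genes, so its counts are uncertain. *Gm45507*, on the opposite strand, covers 504 of the 2265 exonic bases of *Bnip3*.

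*Sqstm1* (chr11:50199366-50210827) encodes p62, which binds ubiquitin on cargo and ATG8 proteins on the autophagosome and is itself degraded there. Its normalized counts were 10469 and 15015 in the controls and 32299 and 47252 in the csPIMT-/- hearts, the highest of the 9 genes in the older csPIMT-/- library. The lower csPIMT-/- value was more than 2 times the higher control. The ratio was 3.02 (2.96 to 3.09) at 2 months and 3.07 (3.01 to 3.12) at 6 months, and 2.08 at 2 months with the older control. *Sqstm1* rose by 1.65 on the log2 scale over both ages (SE 0.228, limma adjusted p = 0.0120). Its ratio of 6 over 2 months was 1.37 in the controls and 1.42 in the csPIMT-/- hearts. *Mrnip*, on the opposite strand, covers 580 of its exonic bases, and the strand setting of the counting is not given in the sources used here.

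ATG8 proteins are conjugated to a lipid of the autophagosome membrane and hold the cargo receptors there. *Gabarapl1* (chr6:129533160-129542346) had normalized counts of 2366 and 2835 in the controls and 6740.4 and 9125 in the csPIMT-/- hearts, without overlap. The ratio was 2.79 (2.67 to 2.93) at 2 months and 3.14 (3.01 to 3.27) at 6 months, and 2.30 at 2 months with the older control. The rise over both ages was 1.61 (SE 0.203, limma adjusted p = 0.0117). A gene on the opposite strand, *1700101I11Rik*, covers 570 of its exonic bases.

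*Map1lc3a* (chr2:155276297-155278073) and *Map1lc3b* (chr8:121590361-121598760) encode LC3A and LC3B, the latter the usual protein marker of autophagosomes. Normalized counts of *Map1lc3a* were 19763 and 18783 in the controls and 33352 and 32998 in the csPIMT-/- hearts. For *Map1lc3b* they were 5718 and 5949 in the controls and 9289 and 9263 in the csPIMT-/- hearts. Ratios of 6 over 2 months within a genotype were 0.908 to 0.994 for these genes, and the genotypes did not overlap. The ratios of *Map1lc3a* were 1.65 (1.63 to 1.68) and 1.71 (1.68 to 1.74), and those of *Map1lc3b* 1.59 (1.54 to 1.65) and 1.52 (1.47 to 1.57). With the older control the ratios at 2 months were 1.72 and 1.51. The differences over both ages, 0.79 (SE 0.233) and 0.68 (SE 0.205), fell just short of the threshold (limma adjusted p = 0.0521 and 0.0557).

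On a scale of reads per kilobase of the longest transcript, scaled to the same sum in each library, *Map1lc3a* had the highest level of the 9 genes in each library, 1430 to 1965. In the 2-month controls it was followed by *Pink1* at 496, *Sqstm1* at 335, *Map1lc3b* at 118, *Gabarapl1* at 111, *Bnip3* at 106, *Bnip3l* at 51.6, *Becn1* at 44.1 and *Fundc1* at 32.7. In the 6-month csPIMT-/- hearts *Sqstm1* stood second at 1169, ahead of *Pink1* at 853, *Gabarapl1* came next at 332, and *Fundc1* last at 8.40. With 1 library per group it cannot be said which neighbours in this order differ beyond the spread between hearts. Of the summed level of 5 ATG8 genes (with *Gabarap* and *Gabarapl2*), *Map1lc3a* made up 69.2% and 66.1% in the controls and 65.8% and 60.9% in the csPIMT-/- hearts. *Gabarapl1* made up 5.06% and 6.10% in the controls and 8.13% and 10.3% in the csPIMT-/- hearts.

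*Becn1* (chr11:101285952-101302286) encodes Beclin 1, a subunit of the lipid kinase complex that starts autophagosome formation. It had normalized counts of 2247 and 2478 in the controls and of 1989.9 and 2010.0 in the csPIMT-/- hearts. Both csPIMT-/- values lay slightly below both controls. The ratios were 0.868 (0.815 to 0.924) and 0.790 (0.745 to 0.837), and 0.777 at 2 months with the older control. The difference over both ages was -0.23 (SE 0.212, limma adjusted p = 0.437). *Cntd1*, on the opposite strand, overlaps 3104 of its 7065 exonic bases.

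**Figure D2:**
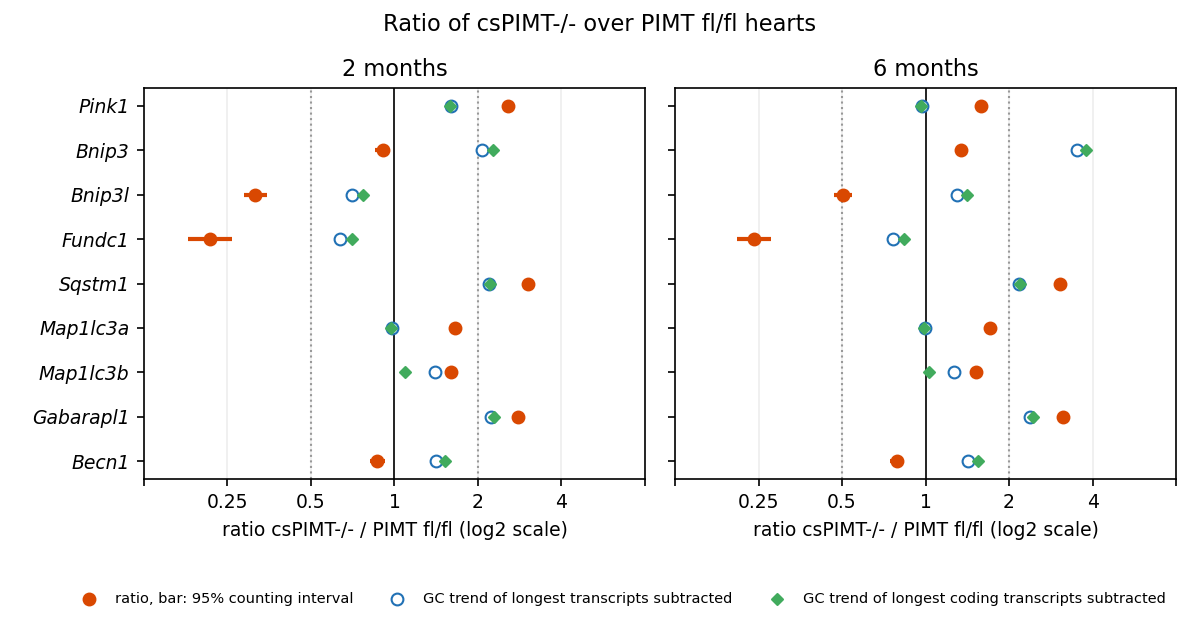
Ratio of csPIMT-/- over PIMT fl/fl (x axis, log2 scale) for the 9 genes (rows) at 2 months (left) and 6 months (right). Filled circles are the ratios with 95% counting intervals, which hold no difference between hearts, open circles and diamonds are the ratios after subtraction of the GC trend of the longest transcripts and of the longest coding transcripts, and dotted lines mark 2-fold. Sqstm1 and Gabarapl1 lie beyond 2-fold at both ages with each of the 3 values, whereas Fundc1 does so only without subtraction.

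Counted by a 2-fold difference at a single age, 3 of the 9 genes were higher at 2 months (*Pink1*, *Sqstm1* and *Gabarapl1*) and 2 lower (*Bnip3l* and *Fundc1*). Over the 15152 genes compared at that age, 16.4% were more than 2-fold higher and 23% lower. At 6 months 2 were higher (*Sqstm1* and *Gabarapl1*) and 1 lower (*Fundc1*), beside 16% and 25.7% of 15218 genes. Beyond 2-fold at both ages were *Sqstm1* and *Gabarapl1*, upward, and *Fundc1*, downward. Among all 14781 genes compared at both ages 7.12% were higher and 16.6% lower in this way.

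The ratios went with the GC content of the transcripts. Across genes, Spearman's rho between the log2 ratio and the GC content of the longest transcript was 0.580 at 2 months and 0.608 at 6 months, a description over genes of the same libraries. The 5 members of highest GC content (*Map1lc3a*, *Pink1*, *Sqstm1*, *Gabarapl1* and *Map1lc3b*, 51.5% to 63.1%) all had ratios above 1 at both ages. *Fundc1* (38.8%), *Bnip3l* (41.9%) and *Becn1* (45.0%) had ratios below 1 at both ages, and *Bnip3* (41.6%) lay below 1 at 2 months and above 1 at 6 months. *Tgs1* itself, at 41.9% GC, had ratios of 0.602 and 0.495 once the trend was subtracted.

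After subtraction of this trend, *Sqstm1* stood at 2.20 and 2.17 and *Gabarapl1* at 2.22 and 2.38 at 2 and 6 months. *Fundc1* came to 0.637 and 0.763, and *Bnip3l* to 0.704 and 1.30. *Pink1* came to 1.59 and 0.968, and *Map1lc3a* to 0.979 and 0.992. *Map1lc3b* had 1.40 and 1.27, or 1.09 and 1.03 with the trend of the longest coding transcripts, and *Becn1* had 1.42 and 1.43, above 1 where it had been below. *Bnip3* had 2.07 and 3.50. Beyond 2-fold at both ages were then 3 of the 9 genes, all higher (*Bnip3*, *Sqstm1* and *Gabarapl1*), beside 6.45% of 14609 genes higher and 4.9% lower. In limma after the subtraction no gene of the 14761 passed, with a smallest adjusted p of 0.0914. At an unadjusted p under 0.05 limma then had 2017 genes higher and 1829 lower, 3 of the 9 genes among them.

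**Figure D3:**
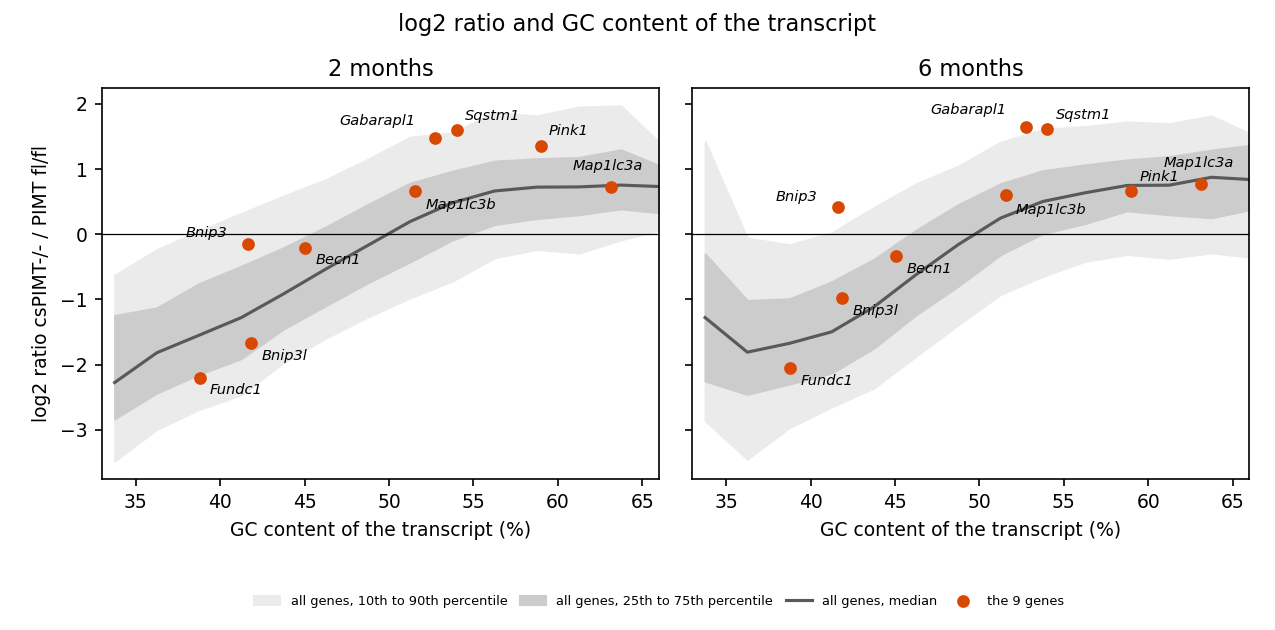
log2 ratio of csPIMT-/- over PIMT fl/fl (y axis) against the GC content of the longest transcript in percent (x axis) at 2 months (left) and 6 months (right), with the 9 genes as points and all genes as the median and percentile bands of bins of GC content. The median of all genes lies below 0 at low and above 0 at high GC content, Sqstm1 and Gabarapl1 lie above the 75th percentile of their bins, and Pink1 and Map1lc3a lie near the median at 6 months.

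Sequence before the RefSeq start was at hand in RefSeq's promoter table (GRCm38.p6) for 6 of the 9 genes. These were *Pink1*, *Bnip3*, *Fundc1*, *Sqstm1*, *Map1lc3b* and *Gabarapl1*. The 250 bases before each start were searched on both strands for CACGTG, the E-box bound by TFEB, for TGACNNNGC, the core of the antioxidant response element, for GTAAACA, a FoxO motif, and for GGGCGG, the GC box bound by Sp1. Of 32851 such windows of all genes 6.02%, 10.2%, 3.17% and 32.7% held them. By GENCODE the *Fundc1* window (chrX:17572008-17572257) lies wholly inside the gene, so it is not upstream of the GENCODE start. *Bnip3* had 1 E-box, 108 bases before its start, and the other searches for the first 3 motifs found no match. GC boxes were found in 5 of the 6 windows, 1 in *Pink1*, 6 in *Bnip3*, of which 3 adjoin and overlap, 3 in *Sqstm1*, 1 in *Map1lc3b* and 2 in *Gabarapl1*. By GENCODE the last 77 bases of the *Map1lc3b* window lie inside the gene. Its box, 37 bases before the RefSeq start, is among them. The windows themselves were 57.2% GC in *Pink1*, 72.4% in *Bnip3*, 63.2% in *Sqstm1* and 69.6% in *Map1lc3b*. Those of *Fundc1* and *Gabarapl1* were 61.2% and 46.8% GC, and the median over all windows was 52.4%. A match shows these letters and not that a factor binds there. The windows of the 3 matched genes that rose in limma and of *Bnip3*, with its E-box, are shown up to the GENCODE start of the gene, 5′ to 3′ on the strand of the gene, with GGGCGG (or CCGCCC, the same box on the other strand) and CACGTG in capitals. They lie at chr4:138326308-138326546 (minus strand), chr11:50210828-50211070 (minus), chr6:129532942-129533159 (plus) and chr7:138909520-138909756 (minus). The last *Bnip3* box, 16 bases before the RefSeq start, is printed only in part. The *Gabarapl1* box 10 bases before the RefSeq start is not printed.
Pink1: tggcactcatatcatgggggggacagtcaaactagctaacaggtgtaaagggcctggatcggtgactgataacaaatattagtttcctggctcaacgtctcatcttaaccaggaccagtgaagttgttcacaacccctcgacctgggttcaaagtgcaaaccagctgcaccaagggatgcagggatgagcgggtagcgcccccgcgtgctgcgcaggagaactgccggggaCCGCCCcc
Sqstm1: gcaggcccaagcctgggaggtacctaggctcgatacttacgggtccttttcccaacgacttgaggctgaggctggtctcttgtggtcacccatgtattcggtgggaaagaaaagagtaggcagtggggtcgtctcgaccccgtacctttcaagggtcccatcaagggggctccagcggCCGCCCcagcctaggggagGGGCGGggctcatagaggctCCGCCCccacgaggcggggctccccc
Gabarapl1: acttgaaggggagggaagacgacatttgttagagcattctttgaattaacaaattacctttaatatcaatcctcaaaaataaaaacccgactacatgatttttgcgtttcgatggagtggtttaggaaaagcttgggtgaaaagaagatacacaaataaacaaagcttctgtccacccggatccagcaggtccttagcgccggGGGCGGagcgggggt
Bnip3: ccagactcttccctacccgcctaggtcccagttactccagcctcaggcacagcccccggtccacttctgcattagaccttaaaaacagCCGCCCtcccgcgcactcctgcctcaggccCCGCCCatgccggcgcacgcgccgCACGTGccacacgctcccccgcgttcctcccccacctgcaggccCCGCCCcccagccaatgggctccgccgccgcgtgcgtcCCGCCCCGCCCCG

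The further 69 genes of autophagy and mitophagy were placed in 9 lists by role, and all but *Calcoco2*, which was at 0 in each library, were compared. In limma 10 of these 68 genes rose, 13 fell and 45 did not pass, beside 12.2% and 18% of all genes. After subtraction of the GC trend 0 passed, as among all genes. Their median ratio was 1.15 at both ages, and 1.10 and 1.09 after this subtraction. In the ULK1 complex, the kinase complex that starts autophagy, 2 genes rose and 2 fell of 5. None of the 7 other genes of the PIK3C3 complex, in which Beclin 1 acts, passed the test. Of the 11 genes that conjugate ATG8 and ATG12, 3 fell and 1 rose. Among 17 other mitophagy genes 4 fell and 2 rose, among 5 other cargo receptors 1 fell, and among 9 genes of fusion and the lysosome 3 fell and 2 rose. In the 8 genes of ATG9, ATG2 and the WIPI proteins 2 rose, and of the 4 transcription factor genes none passed. Of the 2 other ATG8 genes *Gabarap* rose (limma log2 difference 1.02, adjusted p = 0.0225) and *Gabarapl2* did not pass. The ratios of *Gabarap* were 1.87 and 2.07, and 1.76 and 1.87 after subtraction of the GC trend. Those of *Gabarapl2* were 1.21 and 1.65, and 1.92 and 2.87 after the subtraction, above *Gabarap* at both ages.

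Beyond 2-fold at both ages, with at least 100 reads, were 9 of these genes, 7 lower and 2 higher, beside 16.6% of all genes lower and 7.12% higher. *Rb1cc1*, which encodes the FIP200 scaffold of the ULK1 complex, had ratios of 0.256 and 0.219 (limma log2 difference -2.03, adjusted p = 0.0117). *Usp15*, a deubiquitinase gene, had 0.333 and 0.168 (limma adjusted p = 0.0131). *Tax1bp1*, a cargo receptor gene, had 0.253 and 0.337 (limma adjusted p = 0.0117). *Lamp2*, for a lysosomal membrane protein needed for autophagosome clearance in the heart, had 0.398 and 0.424 (limma adjusted p = 0.0149). *Atg3* and *Atg10*, whose products conjugate ATG8 and ATG12, and *Usp8*, for a deubiquitinase, had ratios of 0.212 to 0.493. *Vamp8*, for a SNARE of autophagosome and lysosome fusion, stood at 2.25 and 2.41 (limma adjusted p = 0.0149), and *Ctsd*, for the lysosomal protease cathepsin D, at 2.36 and 2.05 (limma adjusted p = 0.0332). Against the older control these ratios at 2 months were 1.89 for *Vamp8* and 1.72 for *Ctsd*. After subtraction of the GC trend *Lamp2* had ratios of 1.18 and 1.35, *Rb1cc1* of 0.727 and 0.680, *Vamp8* of 1.97 and 2.00 and *Ctsd* of 1.56 and 1.35. *Tax1bp1* had 0.691 and 1.01, *Usp15* 0.710 and 0.415, and *Usp8* 0.543 and 0.647. *Atg3* had 1.13 and 0.921 and *Atg10* 1.27 and 0.612. None of the 9 genes was then beyond 2-fold at both ages, whereas 4 others, named after their values were seen, were higher in this way (*Wdr45l*, *Atg16l1*, *Fbxo7* and *Ctsl*). These were 5.88% of the 68 genes, beside 6.45% of all 14609 genes higher and 4.9% lower after the subtraction.

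**Figure D4:**
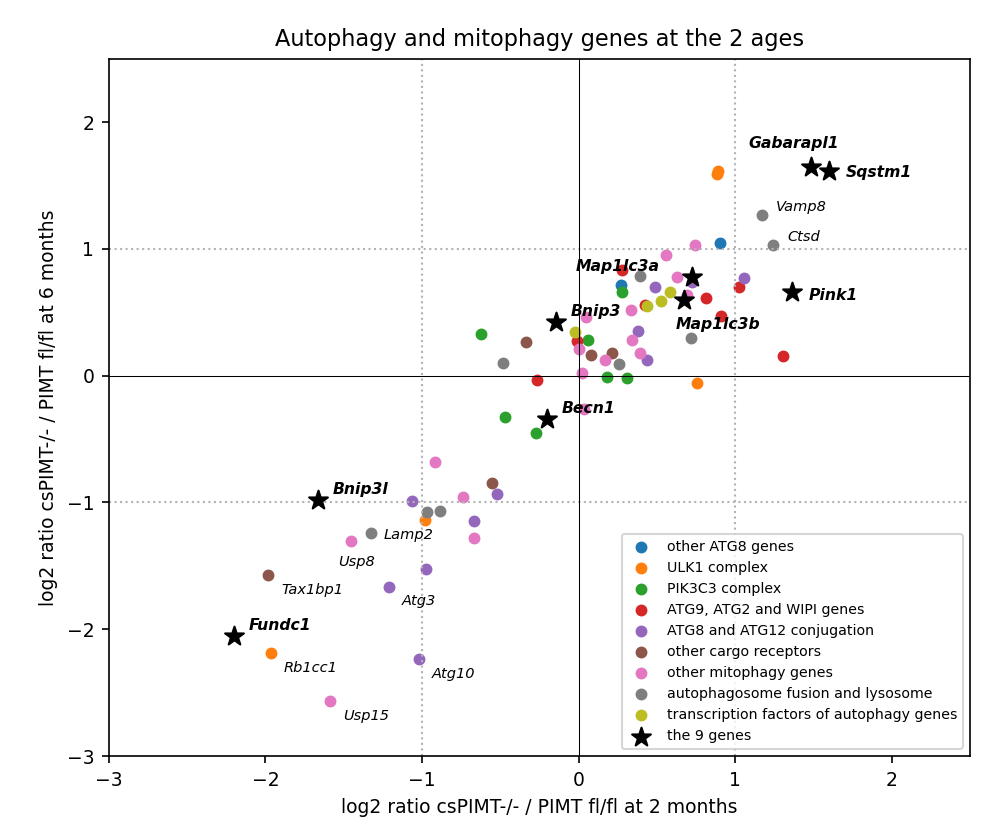
log2 ratio of csPIMT-/- over PIMT fl/fl at 2 months (x axis) and 6 months (y axis) for the 9 genes (stars) and 68 other autophagy and mitophagy genes (circles, coloured by role), with dotted lines at 2-fold. Sqstm1 and Gabarapl1 lie together at the upper right beyond 2-fold at both ages, and Fundc1 lies at the lower left among Rb1cc1, Tax1bp1 and Usp15.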

How the data were processed

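RNA was taken from 5 pooled hearts per group, and 4 libraries were made with directional TruSeq mRNA chemistry after oligo-dT selection. The authors filtered the reads, aligned them with STAR (mm10), obtained gene counts by htseq-count (HTSeq 0.6.1p1) and normalized these with DESeq2. The deposited values are a signal per gene, read counts divided by a size factor of the library. For csPIMT-/- hearts of 6 months the header names read counts, although the values are normalized too. In each library 100% of the values were whole multiples of 1 step (tolerance 1e-06 reads), and whole reads were recovered by division. The 4 deposited factors differed from median-of-ratios factors of all 4 libraries by at most 0.000426%. The versions of STAR and DESeq2 and the strand setting of the counting are not given in the sources used here.

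The 10 members and the role lists were chosen with earlier results of these data known, and 1 member is not reported here and enters no count of members. Ratios used median-of-ratios factors of the 2 libraries, at least 10 reads in 1 of them and 95% Clopper-Pearson intervals, which hold counting error only. The log2 ratios used a pseudocount of 0.5 reads. The other 9 members were all named, and of the other listed genes those past 2-fold in 1 direction at both ages with at least 100 reads. The test over both ages was limma 3.58.1 (R 4.3.3) on log2 of TMM-scaled reads plus 1 (pseudocount), with terms for genotype and age, a mean trend, 1 residual degree of freedom and Benjamini-Hochberg adjustment over all genes with at least 10 scaled counts in 2 libraries. As an alternative on the recovered reads, the edgeR 4.0.16 quasi-likelihood test called 2508 genes lower and 1619 higher. Other alternatives were other scalings, filters and pseudocounts, DESeq2 1.42.0, other controls, libraries left out and subtraction of a lowess trend (span 0.3) on GC content, in GENCODE M21 on GRCm38, known for 98.8% of the genes. The labels give no batch or date.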

Additional observations from a re-analysis of the deposited data

Results flagged for a closer look

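*Bnip3* moved in opposite directions at the 2 ages, with a ratio of csPIMT-/- over control of 0.905 at 2 months and of 1.34 at 6 months. The difference between the ages was not tested, since each group was 1 library. After subtraction of the GC trend both ratios were above 1 (2.07 and 3.50).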

How the results depend on the processing

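The counts rest on 1 library per group, so intervals hold counting error only. No paired analysis was possible because each group held 1 library, other than the term for age in the model. limma called 2687 genes lower and 1825 higher, with 2 and 3 members and 13 and 10 of the other listed genes. After subtraction of the GC trend, of either kind of transcript, and without the mean trend, each of these counts was 0 (3387 genes lower and 2543 higher at an unadjusted p under 0.05 without the trend). Leaving out 1 library in turn, and with it age, gave 147 to 2650 genes lower and 182 to 1273 higher, 0 to 2 members lower and 0 to 3 higher, and 0 to 11 other listed genes lower and 0 to 7 higher. Both choices changed together there, so the moves cannot be put down to the library alone. Without the 6-month control no member passed. Without the 2-month control *Fundc1* and *Gabarapl1* alone passed, and without the 2-month csPIMT-/- library *Pink1* was lost. With a minimum of 100 counts 5 members were higher, and 5 were also higher in a separate fit of all libraries without age in the model.

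With the GC trend subtracted, the limma differences reversed for *Map1lc3a* (-0.016) and *Becn1* (0.52), and with that of coding transcripts, chosen after seeing the data, for *Map1lc3a* (-0.024), *Becn1* (0.62) and *Bnip3l* (0.066). For *Bnip3* the difference was -0.26 without the 2-month control and ranged from -0.61 (without the 6-month csPIMT-/- library) to 0.84 with 1 library and age left out. The *Bnip3l* ratio of 6 months went from 0.506 to 1.30 with the first subtraction.

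Members beyond 2-fold at 2 months, 2 lower and 3 higher, became 0 lower after either subtraction. At 6 months, 1 lower and 2 higher became 2 lower with library totals, 0 lower after either subtraction and 4 higher with the 2-month control. Of the other listed genes at 2 months, 8 lower became 0 after either subtraction, 14 with the older control and 5 where the whole interval had to pass, and 5 higher became 3 with library totals or both controls summed and 2 with the older control or the interval rule. At 6 months 13 lower became 2 after either subtraction. Over all genes at 2 months, 3492 of 15152 lower became 1719 of 14971 and 1458 of 14252 after the subtractions. The 2487 higher became 1607 by the interval rule, and 1618 with at least 100 reads, where only 12374 genes were compared. At 6 months 3917 lower became 1978 and 1743, and 2428 higher became 1591 by the interval rule.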
